A study of Mus musculus with 4 samples.

Results

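Axon guidance genes encode secreted and membrane-bound cues and the receptors that read them, and 35 genes of this kind were followed in lymphatic endothelial cells of the mouse meninges. They are the genes whose names in the deposited table start as semaphorins (Sema), plexins (Plxn), slits (Slit), roundabout receptors (Robo), netrins (Ntn), Unc5 receptors, ephrins (Efna, Efnb) or Eph receptors (Epha, Ephb), together with Nrp1. The table holds 9114 genes, and 35 of the 71 protein-coding genes that GENCODE vM21 lists under such names had a row. Dcc, Neo1 and the other members of these families are not analysed here. Of the 35 genes, 34 are guidance genes. The other, Unc50, was taken in by its name alone: it is named after a Caenorhabditis elegans gene needed for the trafficking of nicotinic acetylcholine receptors and is no netrin receptor.

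Male C57BL/6J mice aged 20 to 24 months were injected into the cisterna magna with 5 µL of the adeno-associated virus AAV1-CMV-mVEGF-C or of the control AAV1-CMV-eGFP. After 4 weeks, meningeal cells that were DAPI-, CD45-, CD31+ and PDPN+ were sorted, with the tissue of 10 mice pooled for a library. The 4 libraries were 2 mVEGF-C and 2 eGFP, so a difference between groups rests on 2 pools against 2. VEGF-C is the growth factor that drives lymphatic growth through the receptor VEGFR3, the CMV promoter is not restricted to a cell type, and both groups carried a virus, so no group shows the untreated state.

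Semaphorins act through plexins, alone or with a neuropilin as co-receptor. Slits act through Robo receptors, netrins through Dcc, Neo1 and Unc5 receptors, and ephrins through Eph receptor tyrosine kinases in cells that touch. In vessels these pathways steer sprouts, keep vessels apart and shape junctions. In lymphatic vessels, semaphorin 3A with neuropilin-1 and ephrin-B2 with EphB4 are known for their part in the formation of valves.

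The recovered depth was 25610683 to 28632461 reads per library. All 12 lymphatic endothelial markers listed had a row, and their summed normalised counts were 488399 and 560813 in the eGFP and 634074 and 517059 in the mVEGF-C libraries. Transcripts of other cell types were present too. For blood endothelium 10 of 12 markers had a row, with sums of 27515 and 56357 in the eGFP and 36551 and 35861 in the mVEGF-C libraries. Cldn5 and Vwf among them also count as general endothelial markers. For meningeal fibroblasts 12 of 16 markers had a row, with sums of 113766 and 51124 in the eGFP and 131696 and 95005 in the mVEGF-C libraries. For mural cells 6 of 12 did, with sums of 29518 and 22867 against 18403 and 13798, for neurons and glia 5 of 12, with 974 and 1012 against 3038 and 680, and for epithelium 4 of 9, with 22727 and 26419 against 17248 and 24813. For macrophages 2 of 12 had a row, Mrc1 and Cx3cr1, and Mrc1 is also found in lymphatic endothelium. For lymphocytes 4 of 10 did, with sums of 996 and 625 against 683 and 384, and Cd3e stood at 0 in mVEGF-C 1. Fewer cells of a type and less RNA per cell cannot be told apart in such libraries.

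Expression of the guidance genes spanned a wide range. Over the 4 libraries the mean was 20550 normalised counts for Robo4, the highest, and 19.4 for Sema5b, the lowest, and the median of the 35 means was 1434, against 828 over all genes tested. Per kilobase of exon, Robo4, the Robo receptor found mainly in endothelium, came first at 3876, with the 4 libraries between 2507 and 5310. Plxnd1, the receptor of semaphorin 3E, followed at 2125 (1405 to 3480) and Sema6a at 2122 (1871 to 2406). Robo4 was above both in each of the 4 libraries, while the ranges of Plxnd1 and Sema6a overlap, so their order is not resolved. Next came Sema7a at 1409 and Ephb4 at 1254 per kilobase. Sema5b, Epha10 and Epha4 had the lowest levels per kilobase, 2.74, 4.96 and 5.25.

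**Figure D1:**
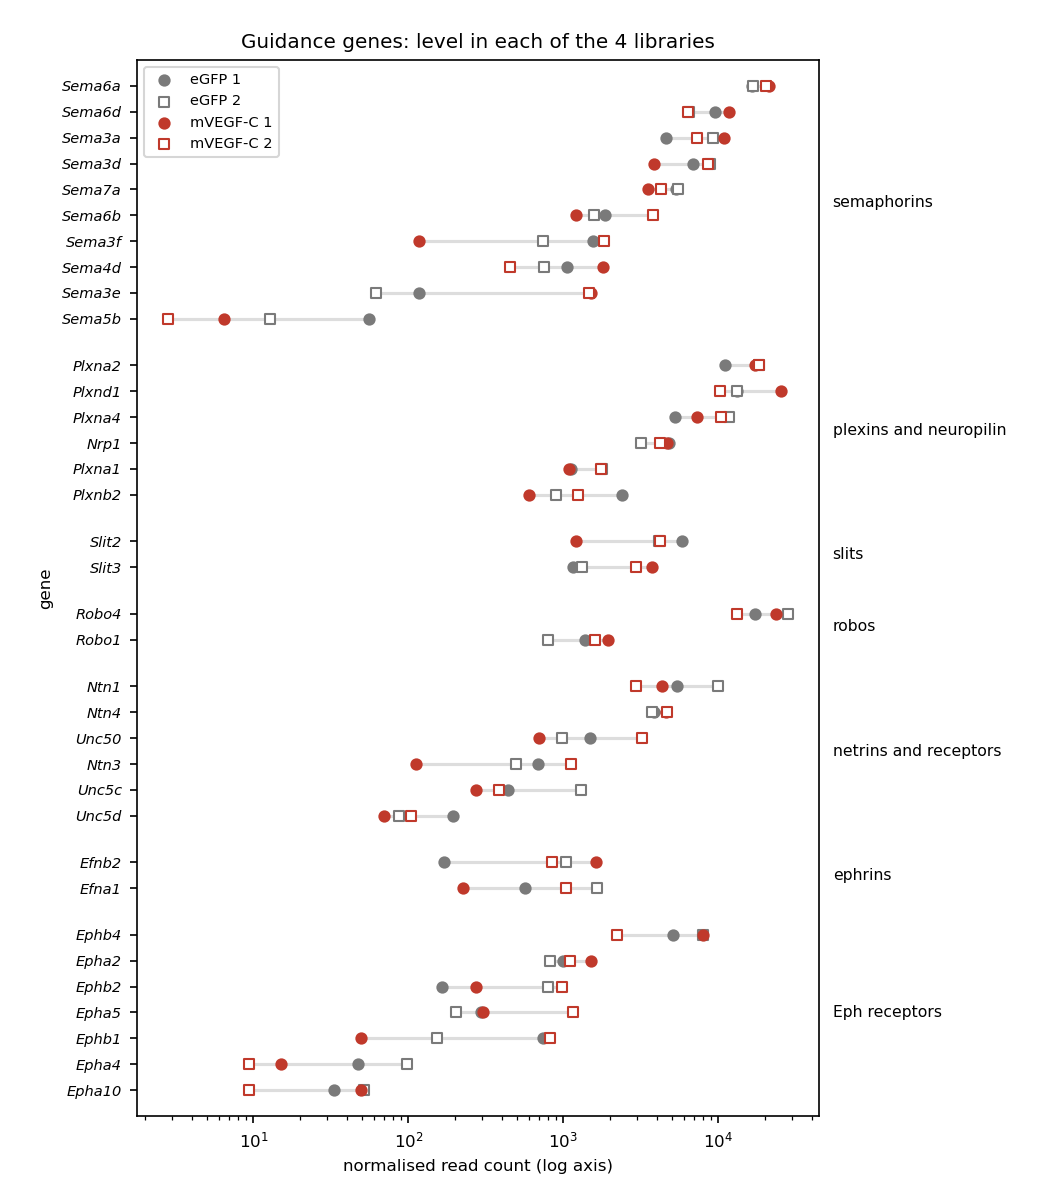
Normalised read count of each of the 35 genes (log axis) in the 2 eGFP libraries (grey) and the 2 mVEGF-C libraries (red), grouped by family and ordered by mean within it; circles are replicate 1 and squares replicate 2, and the line spans the 4 libraries. For Sema3e both mVEGF-C points lie together at 1514 and 1470 and both eGFP points at or under 117, while most other genes have the 2 colours intermixed. Unc50 stands among the netrin receptors by name alone.

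Between mVEGF-C and eGFP libraries 1 of the 35 genes was called, Sema3e, which was higher in mVEGF-C. Called means a p under 0.05 in limma after Benjamini-Hochberg adjustment over all 9063 genes tested, on log2(normalised count + 1). The background is 2.14% of genes called in either direction, 0.828% higher and 1.31% lower, so 1 of 35 (2.86%) is near it and is no result about the group of genes. At an unadjusted p under 0.05 Sema3e was again the 1 gene of 35 that passed, against 11.8% of all genes (5.09% higher and 6.7% lower). Of the 35 genes, 12 had groups that did not overlap (34.3%), against 39.2% of all genes. The mVEGF-C libraries were above for 7 of these and below for 5, against 19.4% and 19.8% of all genes. In edgeR 0 of the 35 genes were called, against 1.61% of all genes, and in DESeq2 1, again Sema3e, against 6.63%. At an unadjusted p under 0.05 both of these tools took 3 of the 35, Sema3e and the lower genes Epha4 and Sema5b, against 11.8% of all genes in edgeR and 16.7% in DESeq2. Fold changes were above 0 for 18 of the 35 genes (51.4%) and for 49.5% of all genes. The median log2 fold change was 0.02 over the 35 genes and -0.02 over all genes, and the median absolute value 0.60 against 0.79.

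**Figure D2:**
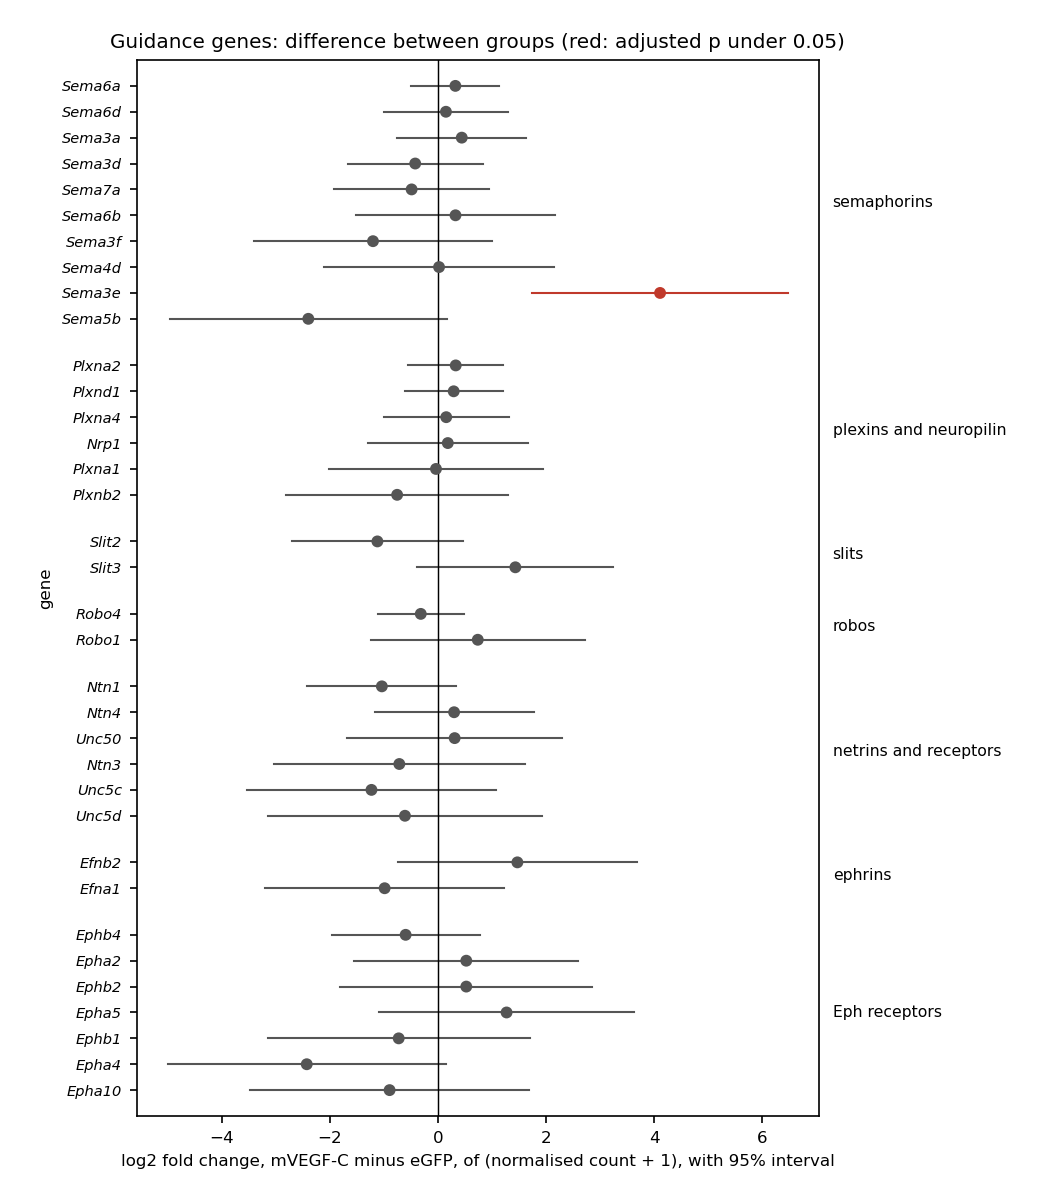
Log2 fold change of each gene, mVEGF-C minus eGFP, with its 95% interval from limma, grouped as in the plot of levels. The interval of Sema3e (red, 1.74 to 6.48) lies above 0, and the intervals of the other 34 genes include 0.

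Sema3e encodes semaphorin 3E, a secreted ligand that binds plexin-D1 without needing a neuropilin and is known as a repellent of growing blood vessels. Its normalised count was 117 in eGFP 1, 62.0 in eGFP 2, 1514 in mVEGF-C 1 and 1470 in mVEGF-C 2. Both mVEGF-C libraries were thus far above both eGFP libraries and within 1.03-fold of each other, whereas the eGFP libraries differed by 1.89-fold. Behind these values were 131 and 58 reads in the eGFP and 1417 and 1582 in the mVEGF-C libraries. The group means were 1492 ± 31.1 in mVEGF-C and 89.7 ± 39.1 in eGFP (mean ± SD, n = 2 each), a ratio of 16.6. On the log2 scale the difference was 4.11 (SE 1.21, 95% interval 1.74 to 6.48), with an adjusted p of 0.0370 in limma. Sema3e ranked 163 by p of the 9063 genes.

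The call for Sema3e stands close to the threshold. It was lost in edgeR (adjusted p = 0.0755), in limma without the variance trend (0.0816) and when any single library was left out, with an adjusted p of 0.105 without mVEGF-C 1, 0.07 without mVEGF-C 2, 0.221 without eGFP 1 and 0.829 without eGFP 2. DESeq2 gave an adjusted p of 7.34e-05. The log2 fold change itself stayed between 3.66 and 4.57 across all the settings tried.

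Some markers of other cell types differed between the groups, in both directions. Of the 10 blood endothelial markers with a row 0 were called and 6 had fold changes above 0. Selp stood at 3122 and 6120 in eGFP against 144 and 1969 in mVEGF-C (log2 fold change -3.03, limma adjusted p = 0.0753). Spock2 stood at 1691 and 1995 against 615 and 58.5 (log2 fold change -3.26, limma adjusted p = 0.121). Plvap went the other way, at 6226 and 5250 against 8604 and 16377, with the groups apart (log2 fold change 1.05, limma adjusted p = 0.504). Of the fibroblast markers, Fmod, a collagen-binding proteoglycan, was called higher (log2 fold change 2.69, limma adjusted p = 0.00729), with 5228 and 965 in the eGFP and 15213 and 13846 in the mVEGF-C libraries. The other 11 fibroblast markers were not called. The lists were chosen with earlier results of these data known, so their counts are descriptions and not tests. Of all 12, 9 had fold changes above 0, against 49.5% of all genes, and their median was 0.62. The eGFP libraries differed here. The summed counts were 113766 in eGFP 1, which lay between the mVEGF-C libraries at 131696 and 95005, and 51124 in eGFP 2. Ogn among them had 8982 and 1784 in eGFP and 13305 and 11226 in mVEGF-C libraries, with the groups apart (log2 fold change 1.61, limma adjusted p = 0.187). Of the neuronal and glial markers Syt1 stood at 8.95 and 11.8 against 110 and 207 and was not called (limma, adjusted p = 0.116). Of the epithelial markers Ttr, the transthyretin of the choroid plexus, was called lower, at 3947 and 19584 in eGFP against 512 and 824 in mVEGF-C (log2 fold change -3.76, limma adjusted p = 0.00306). The epithelial list as a whole did not lean to 1 side: 2 of its 4 markers with a row had fold changes above 0. These were Slc4a10 at 0.85 and Cldn11 at 0.38, and neither was called. The part of any of these cell types in the Sema3e difference was not tested.

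**Figure D3:**
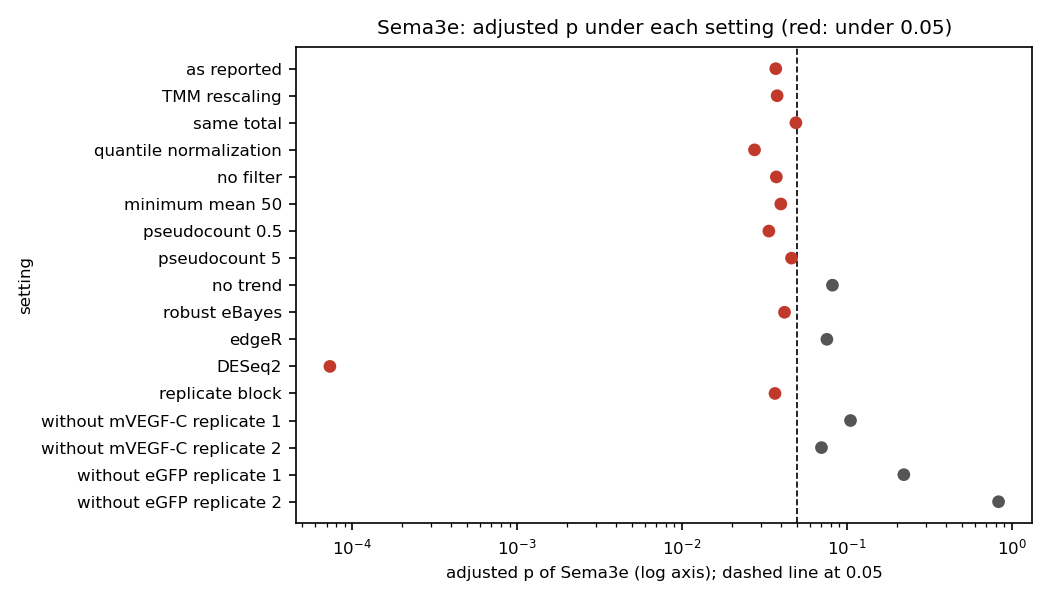
Adjusted p of Sema3e (log axis) as reported and under each alternative setting; red points are under 0.05 and the dashed line marks 0.05. The values run from 7.34e-05 in DESeq2 to 0.829 without eGFP replicate 2, and all 4 settings that leave out a library lie above the line.

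Sema3e lies on chromosome 5 (GRCm38, 14025276 to 14256689, plus strand) in a cluster with a pair of its relatives. Sema3a starts 900 kb and Sema3d 1642 kb upstream of its start. The 300 bases around the Sema3e start are shown because it is the called gene. They run from 250 bases before the annotated start to 50 after it, at chr5:14025026-14025325 on the plus strand (RefSeq, GRCm38.p6), and the capitals mark an E-box, CACGTG.
Sema3e promoter: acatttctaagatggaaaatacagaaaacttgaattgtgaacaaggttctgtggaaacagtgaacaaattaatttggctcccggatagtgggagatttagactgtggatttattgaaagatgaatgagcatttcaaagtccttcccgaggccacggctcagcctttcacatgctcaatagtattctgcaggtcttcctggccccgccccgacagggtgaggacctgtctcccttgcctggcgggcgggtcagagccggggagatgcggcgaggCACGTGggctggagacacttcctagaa
The E-box covers bases 24 to 29 of the transcript, counted from 1 at the annotated start. CACGTG, which reads the same on both strands, occurs in 7.15% of 32817 RefSeq promoter windows of the same length. The window holds 11 CG dinucleotides and 50.7% G and C, against medians of 7 and 52.7% over all windows. A search of both strands for 6 further motifs found no match here. Of these, the ETS motif CCGGAAG is held by 8.86% of all windows and the FOX motif TGTTTAC by 3.65%. The motif TGACTCA of AP-1 is held by 5.2%, and TGGGAA, read by the Notch effector RBPJ, by 25.6%. The TATA box, searched as TATAAA, is held by 13.6%. The GATA factor motif, searched as AGATAA, is held by 11.2%. The windows listed for Sema3a and Sema3d held none of the 7 motifs. The RefSeq window of Sema3a, at chr5:13396534-13396833, lies inside the GENCODE gene. The distance of 900 kb was taken from the GENCODE start at 13125414, so the 2 refer to different starts.

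Other genes around Sema3e were not called. Within 5 Mb of its start, a window chosen after the values were seen, 7 other genes had a row, with log2 fold changes of -1.72 to 0.64 (limma, lowest adjusted p 0.695). Pclo, the nearest, starts 490 kb downstream and stood at 0.37. Sema3a, the repellent that signals through neuropilin-1 and plexin-A receptors, had 4624 and 9209 normalised counts in eGFP and 10831 and 7243 in mVEGF-C libraries. Its groups overlapped, and the log2 fold change was 0.44 (95% interval -0.75 to 1.63). Sema3d, also a secreted class 3 semaphorin, had 6827 and 8779 in eGFP against 3871 and 8634 in mVEGF-C, with a log2 fold change of -0.42 (interval -1.67 to 0.83). These relatives differ from Sema3e in level as well: per kilobase of exon they stood at 575 and 818, and Sema3e at 12.6 and 6.68 in the eGFP and 163 and 158 in the mVEGF-C libraries.

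**Figure D4:**
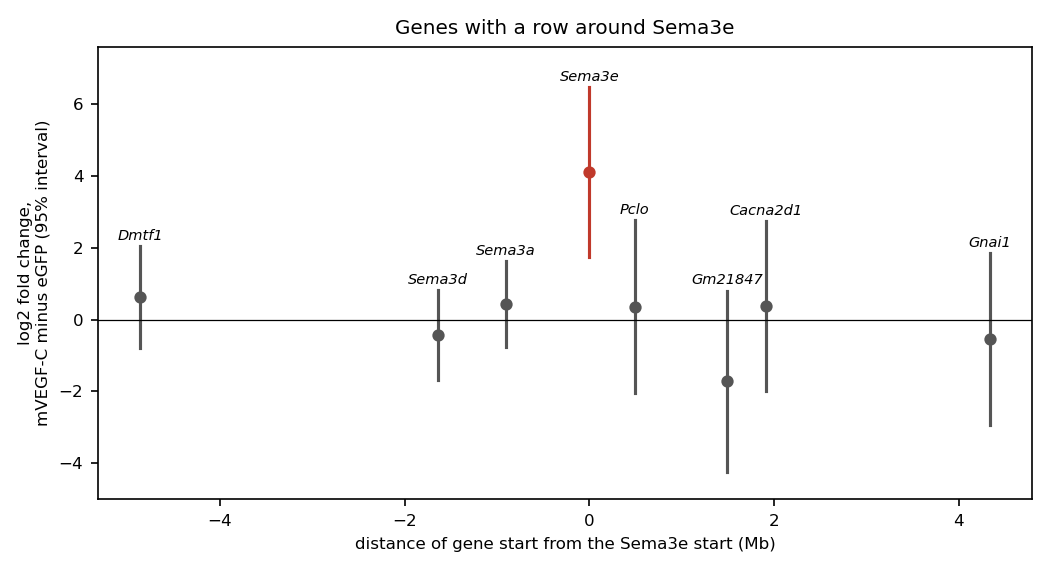
Log2 fold change, mVEGF-C minus eGFP, with its 95% interval from limma, of the 8 genes with a row within 5 Mb of the Sema3e start, against the distance between gene starts in Mb. Sema3e (red) stands at 4.11, and the intervals of the other 7 genes include 0.

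Sequence shared between genes was small for these transcripts. Of the 31-base words in the GENCODE vM21 transcripts of Sema3e, 0.689% also occur in a transcript of another gene, on either strand, against a median of 0.438% over the 35 genes. Plxna1 was the 1 gene above 5%, at 8.57%, the largest share of it with the antisense gene Gm26811. Exons of 7 of the 35 genes overlap a gene on the opposite strand (Epha10, Ephb1, Ephb4, Ntn3, Plxna1, Plxna4 and Unc5c). Whether the counting used strand is not given in the sources used here. Reads that fall in the shared stretches, from 33 exon bases for Ephb4 to 970 for Plxna1, therefore cannot be told apart from reads of the antisense partners. For Sema3e no exon overlap with another gene is annotated.

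The receptor of semaphorin 3E was not called. Plxnd1 had 13244 and 13148 normalised counts in eGFP 1 and 2, 25409 in mVEGF-C 1 and 10259 in mVEGF-C 2. The mVEGF-C libraries lay on both sides of the eGFP pair, and the log2 fold change was 0.29 (95% interval -0.62 to 1.20; adjusted p = 0.907 in limma).

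The other 9 semaphorins were not called, and 5 of them had fold changes above 0. Sema6a, a transmembrane ligand of plexin-A2 and plexin-A4, was the most abundant semaphorin, with 16426 and 16673 normalised counts in eGFP and 21123 and 20277 in mVEGF-C libraries. The groups did not overlap and each pair agreed within 1.04-fold. The log2 fold change was 0.32 (interval -0.49 to 1.14, adjusted p = 0.877 in limma). Sema7a, which is anchored by a lipid tail and binds plexin-C1 and integrin beta-1, lay the other way: 5311 and 5523 in eGFP against 3514 and 4246 in mVEGF-C (log2 fold change -0.49). Both differences are small beside the intervals. These intervals take their width from the trend of variance on expression over all genes and not from the genes' own spread.

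Sema3f, a ligand of the VEGF-C co-receptor neuropilin-2, had 1554 and 737 normalised counts in eGFP, 118 in mVEGF-C 1 and 1825 in mVEGF-C 2. The mVEGF-C libraries differed by 15.5-fold and enclosed both eGFP libraries, so the log2 fold change of -1.20 (limma, adjusted p = 0.794) rests on mVEGF-C 1. Without that library it was 0.77. Sema5b, a transmembrane semaphorin with thrombospondin repeats, was close to the floor at 55.5 and 12.8 in eGFP and 6.41 and 2.79 in mVEGF-C. Its groups were apart, with a log2 fold change of -2.40 (limma, adjusted p = 0.485), but the mVEGF-C values stand for 6 and 3 reads. Sema4d, the ligand of B plexins, Sema6b and Sema6d had overlapping groups and fold changes of 0.02, 0.32 and 0.15.

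Among plexins and the neuropilin, none of 6 was called, the groups overlapped for each, and the log2 fold changes ran from -0.76 to 0.33. Plxna2, a receptor of class 6 semaphorins and the 1 of the 6 with the highest count, though not per kilobase (944 against 2125 for Plxnd1), had 10975 and 18293 normalised counts in eGFP and 17250 and 18363 in mVEGF-C libraries. The log2 fold change was 0.33 (interval -0.55 to 1.20, adjusted p = 0.888 in limma), and -0.040 without eGFP 1, the low library. Nrp1, the co-receptor of semaphorin 3A and of VEGF-A, had 4782 and 3188 in eGFP against 4681 and 4192 in mVEGF-C, a log2 fold change of 0.18 (interval -1.29 to 1.66). Plxna4 stood at 0.15, Plxna1 at -0.04, and Plxnb2, a receptor of class 4 semaphorins, at -0.76. An antisense gene at the Plxna4 locus, Plxna4os2, has its own row under an Ensembl identifier and was outside the rule; it had 512 and 2666 in eGFP and 662 and 477 in mVEGF-C libraries (limma, adjusted p = 0.830).

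**Figure D5:**
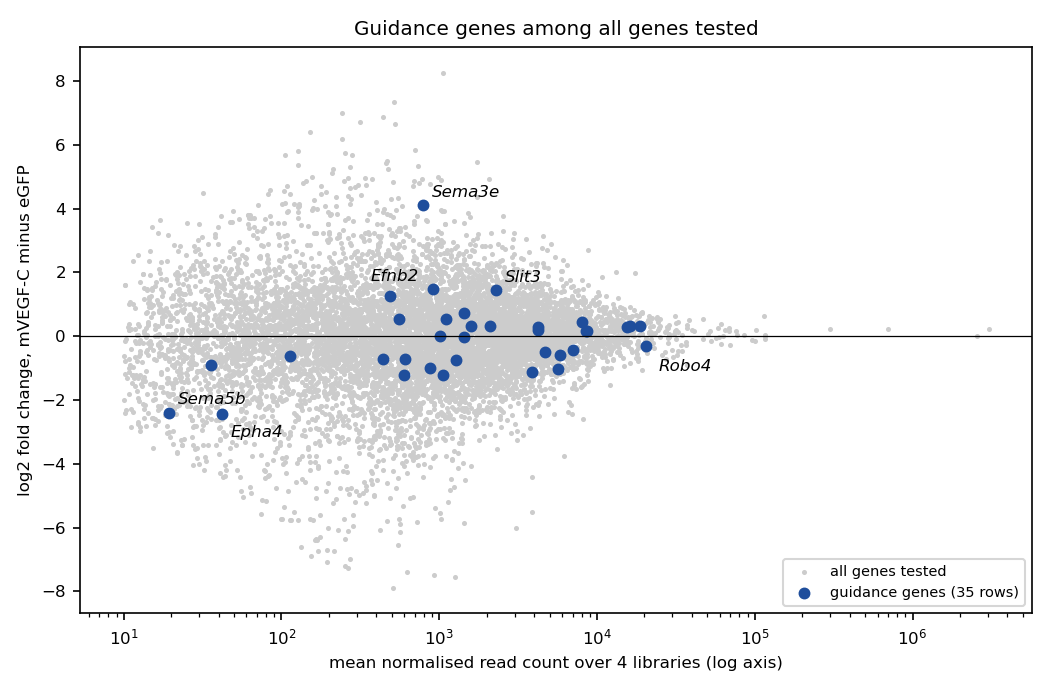
Log2 fold change, mVEGF-C minus eGFP, against the mean normalised read count over the 4 libraries (log axis) for all 9063 genes tested (grey) and the 35 guidance genes (blue). Sema3e lies at 4.11 in the upper part of the cloud, and the other 34 lie between -2.43 and 1.47.

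The 2 slits with a row pointed in opposite directions. Slit3 had 1158 and 1315 normalised counts in eGFP and 3754 and 2959 in mVEGF-C libraries. The groups did not overlap, the ratio of means was 2.71, and the log2 fold change was 1.43 (SE 0.93, adjusted p = 0.611 in limma). Slit2 had 5821 and 4156 in eGFP, 1210 in mVEGF-C 1 and 4221 in mVEGF-C 2, a log2 fold change of -1.12 (limma, adjusted p = 0.672), of -0.22 without mVEGF-C 1 and of -2.02 without mVEGF-C 2. Neither was called, and the difference between the 2 slits was not tested.

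Robo4 was the most abundant of the 35 genes, with 17248 and 28155 normalised counts in eGFP and 23505 and 13291 in mVEGF-C libraries. The libraries of the groups alternated in rank, and the log2 fold change was -0.32 (interval -1.11 to 0.47, adjusted p = 0.872 in limma). It was 0.093 without mVEGF-C 2 and 0.035 without eGFP 2. Robo1, the widely expressed slit receptor, had 1387 and 797 against 1928 and 1595, with the mVEGF-C libraries above and a log2 fold change of 0.74 (limma, adjusted p = 0.890).

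Netrins and their receptors included no called gene. Ntn1, the founding netrin, had 5379 and 9999 normalised counts in eGFP and 4343 and 2933 in mVEGF-C libraries. Both mVEGF-C libraries were below both eGFP libraries, with a log2 fold change of -1.04 (interval -2.42 to 0.34, adjusted p = 0.637 in limma), and of -0.59 without eGFP 2. Ntn4, a netrin that binds laminin in basement membranes, was the steadiest gene of the family, at 3850 and 3707 against 4604 and 4692. The pairs agreed within 1.04-fold and 1.02-fold, the groups were apart, and the log2 fold change was 0.30 (interval -1.17 to 1.77). This interval takes its width from the trend of variance on expression over all genes and not from the spread of Ntn4.

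The receptor Unc5c had 441 and 1305 in eGFP and 272 and 382 in mVEGF-C libraries, with the groups apart and a log2 fold change of -1.23 (limma, adjusted p = 0.801), which was -0.45 without eGFP 2 and -2.01 without eGFP 1. Unc5d was low, between 69.4 and 194 in the 4 libraries. Ntn3 differed by 10.1-fold between the mVEGF-C libraries, at 112 and 1128, which enclosed the eGFP values of 690 and 497. Unc50 had overlapping groups and a fold change of 0.31.

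Of the ephrins, Efnb2, the transmembrane ephrin-B2, had 169 normalised counts in eGFP 1, 1042 in eGFP 2, 1615 in mVEGF-C 1 and 843 in mVEGF-C 2. Its groups overlapped, eGFP 1 stood apart from the other libraries, and the log2 fold change was 1.47 (interval -0.74 to 3.68, limma adjusted p = 0.708). Without eGFP 1 it was 0.16, and without eGFP 2 it was 2.78. Efna1, the lipid-anchored ephrin-A1, had 568 and 1639 in eGFP and 226 and 1042 in mVEGF-C libraries. Its log2 fold change of -0.99 (limma, adjusted p = 0.857) turned to 0.11 without mVEGF-C 1.

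Ephb4, the receptor of ephrin-B2 and the most abundant of the 7 Eph receptors, had 5125 and 7954 in eGFP, 7972 in mVEGF-C 1 and 2230 in mVEGF-C 2. The mVEGF-C libraries lay on both sides of the eGFP pair, with a log2 fold change of -0.60 (limma, adjusted p = 0.859), and of 0.32 without mVEGF-C 2. Epha2, a receptor of ephrin-A1, stood at 993 and 817 against 1516 and 1107, with the mVEGF-C libraries above and a difference of 0.52. Epha5 had 295 and 204 in eGFP, 302 in mVEGF-C 1 and 1162 in mVEGF-C 2. The groups did not overlap, though mVEGF-C 1 lay just above eGFP 1, and the log2 fold change was 1.27 (limma, adjusted p = 0.796). It was 0.30 without mVEGF-C 2 and 2.24 without mVEGF-C 1.

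Epha4, a receptor for ephrins of both classes, was low: 47.5 and 97.3 in eGFP against 15.0 and 9.29 in mVEGF-C libraries. With its groups apart and a log2 fold change of -2.43 (limma, unadjusted p = 0.0647, adjusted p = 0.478), it came next to Sema3e in the order of p. Its mVEGF-C values stand for 14 and 10 reads. Ephb1 and Ephb2 varied more within than between the groups, with a 16.8-fold difference between the mVEGF-C libraries for Ephb1 and a 4.83-fold difference between the eGFP libraries for Ephb2. Epha10, whose kinase domain is thought to be inactive, had between 9.29 and 51.3.

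The spread between replicates was smaller for these genes than over the table, and large in absolute terms. The median fold between the 2 libraries of a group, taken on normalised count + 1, was 1.60 in eGFP and 1.83 in mVEGF-C, against 1.92 and 2.10 over all genes tested. The libraries of a group differed by more than 2-fold for 11 of the 35 genes in eGFP (31.4%) and 15 in mVEGF-C (42.9%), against 47.2% and 52.6% of all genes tested. They differed by more than 4-fold for 4 and 6 of the 35, against 1314 and 2225 of the 9063 genes tested. The median level of the 35 genes was also higher, 1434 against 828, and the part of level in the smaller spread was not tested. No library was at the extreme throughout: mVEGF-C 1 was the highest for 11 genes and the lowest for 13, and eGFP 2 the highest for 10 and the lowest for 6.

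Partners and effectors of these pathways had 0 called genes in limma. Of 34 co-receptors and other ligands listed, 15 had a row, 8 with fold changes above 0 and a median of 0.18. At an unadjusted p under 0.05 there was 1 of 15 in limma, Nrp2, against 11.8% of all genes. In edgeR there was 1, the lower gene Flt1, against 11.8% of all genes, and in DESeq2 0, against 16.7%. Nrp2 thus passed in limma alone. After adjustment edgeR and DESeq2 called 0 of the 15. Nrp2, the co-receptor of semaphorin 3F and VEGF-C, had 34149 and 42448 normalised counts in eGFP and 63728 and 47757 in mVEGF-C libraries, with the groups apart and a log2 fold change of 0.54 (limma, adjusted p = 0.398). Of 67 cytosolic effectors listed, 44 had a row, 22 with fold changes above 0 and a median of -0.01, where all genes had -0.02. At an unadjusted p under 0.05 there were 2 of 44 in limma, the lower genes Src and Srgap1, against 11.8% of all genes. Both edgeR and DESeq2 took 3 of 44, Rras, Src and Srgap1, all lower, against 11.8% and 16.7% of all genes. In edgeR 0 of the 44 were called, and in DESeq2 1, Srgap1, against 6.63% of all genes. Srgap1, a GTPase-activating protein that binds Robo receptors, had the smallest p of these at 3112 and 2716 against 691 and 250, with a log2 fold change of -2.80 (limma, adjusted p = 0.163). Srgap2 and Srgap3 of the same family stood at -0.87 and 0.46. Rhoa, the GTPase through which several of these receptors act on actin, had 4340 and 2430 against 7118 and 6346 and differed by 1.05 (limma, adjusted p = 0.648).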

How the data were processed

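Libraries were made from linearly amplified RNA, per the labels' protocols. The authors deposited 1 table of normalised read counts, a signal that is gene counts divided by a size factor per library. The submitters' processing notes name FastQC, Trimmomatic, Salmon, DESeq2 and the build mm10, with versions not given in the sources used here. Every value was a whole multiple of the smallest value of its library (100% within 0.001), so whole reads were recovered. Within a group the SD of log2(reads + 1) never exceeded 2.00 in eGFP or 3.00 in mVEGF-C, as read from the values. Genes less alike between replicates are not analysed here, so the spread between replicates is understated and p-values are too small.

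The groups were compared with limma 3.58.1 in R 4.3.3 (eBayes with trend) on log2(value + 1), which understates the change of low genes, for 9063 genes with a mean of at least 10, two-sided, with Benjamini-Hochberg adjustment. With 2 residual degrees of freedom and an infinite prior, p-values took the variance from the trend and not from a gene's own spread. An exact permutation test of 2 against 2 libraries cannot go below p = 0.333 and was not used. On the recovered reads, edgeR 4.0.16 (quasi-likelihood) called 67 genes higher and 79 lower, and DESeq2 1.42.0 called 283 and 318. Gene positions and exon lengths are from GENCODE vM21 (GRCm38, which is mm10), matched by symbol for 35 of 35 genes. Promoter windows are from RefSeq (GRCm38.p6). Values in every library are given for the called gene, the gene of each family with the highest mean normalised count and the 12 genes with the smallest p, and for others where a relation is described. Alternatives were TMM, same-total and quantile scaling, no filter or a minimum mean of 50, pseudocounts of 0.5 and 5, eBayes without trend or robust, edgeR, DESeq2, the replicate number as a block, and each library left out. The genes and lists were chosen with earlier results of these data known. The scripts were tested on simulated data.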

Additional observations from a re-analysis of the deposited data

How the results depend on the processing

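The count of 1 guidance gene called higher, Sema3e, became 0 without trend and in edgeR (0 to 1 over all the settings tried). The call of Sema3e was also lost whenever 1 library was left out. In every setting tried 0 guidance genes were called lower. At an unadjusted p under 0.05, 1 guidance gene passed in limma as reported, the higher gene Sema3e (1068 of all genes). The count was 2 with a pseudocount of 5 (1063 of all genes) and 3 in limma without trend (1048). It was also 3 in edgeR (1068) and in DESeq2 (1509). The median log2 fold change of the 35 genes was -0.064 with libraries scaled to the same total, -0.0059 after quantile normalization and -0.11 to 0.16 with 1 library left out. Over all genes, 75 higher and 119 lower became 15 and 26 without trend, 283 and 318 in DESeq2 and 67 and 79 in edgeR. With 1 library left out they ran from 5 to 104 and from 0 to 188. The extremes were without eGFP 2 (5 and 0, with 401 genes at an unadjusted p under 0.05) and without mVEGF-C 2 (104 and 188). With 1 library left out, the lone library of a group is assumed to vary like the other group. With the replicate number as a block, 74 and 129 genes were called and Sema3e kept its call (adjusted p = 0.0366). The labels do not say that numbers pair libraries, and the deviations of same-numbered libraries did not correlate (0.00013). Some uncalled fold changes turned their sign with 1 library left out. Sema3f ran from -3.18 to 0.77 and Efna1 from -2.09 to 0.11, with the sign turned without mVEGF-C 1. Ephb4 ran from -1.52 to 0.32 and turned without mVEGF-C 2. Robo4 ran from -0.73 to 0.093 and turned without mVEGF-C 2 or eGFP 2 (0.035). Plxna2 ran from -0.040 to 0.70 and turned without eGFP 1. Genes with few normalised counts, such as Sema5b and Epha4, rest on few reads in the mVEGF-C libraries (6 and 3, and 14 and 10).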
